A study of Homo sapiens with 32 samples.

Results

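The mRNAs of the decapping machinery and of the core proteins of P bodies were followed across every treatment of an RNA sequencing study of HEK293T cells. These 10 genes, DCP1A, DCP1B, DCP2, EDC3, EDC4, PATL1, DDX6, LSM14A, EIF4ENIF1 and XRN1, were taken by name as parts of one pathway, with earlier results of these data known, from 60662 gene IDs per library, and all 10 passed the filter on low counts in every fit. HEK293T cells descend from human embryonic kidney and express SV40 large T antigen, and their poly(A) RNA was sequenced in 32 libraries from 3 experiments. STM2457, an inhibitor of the m6A methyltransferase METTL3, was given at 20 µM in 0.2% DMSO, and all control cells received DMSO alone. In the knockdown experiment, 4 groups of 3 libraries held cells treated for 6 h with DMSO, with STM2457, with DMSO and YTHDF2 siRNA, or with STM2457 and YTHDF2 siRNA. The siRNA was used at 20 nM, the drug was added 42 h after transfection, and the cells were harvested at 48 h. The libraries without YTHDF2 siRNA are labelled WT, and the labels do not say whether those cells received the control siRNA, so effects of transfection and of losing YTHDF2 cannot be told apart. The 9 h experiment held 4 libraries with DMSO and 4 with STM2457, with no siRNA. The emetine experiment held 4 groups of 3 libraries, DMSO or STM2457 for 6 h. Each had 1.8 µM emetine in the last 2 h or, in the groups called without emetine, DMSO for 2 h.

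Decapping removes the 5′ cap of an mRNA and so exposes it to digestion from that end. DCP2 is the catalytic subunit, DCP1A and DCP1B are paralogous activators that bind it, and EDC4 and EDC3 are scaffolds and enhancers of the complex. PATL1 links the LSM1-7 ring, which sits on shortened poly(A) tails, to DCP2, and XRN1 is the exonuclease that degrades the decapped RNA. DDX6 is a helicase that represses translation and stimulates decapping, and it is needed to form P bodies, cytoplasmic granules in which these proteins and repressed mRNAs gather. LSM14A and EIF4ENIF1 (4E-T) bind DDX6, and 4E-T also binds the cap-binding protein eIF4E. YTHDF2 is an m6A reader that brings methylated mRNAs to the CCR4-NOT deadenylase, the step before decapping, and emetine stops translation elongation. The study asked how m6A in coding regions shortens the life of an mRNA and whether that depends on translation.

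The labels were checked on YTHDF2 first. YTHDF2 mRNA stood at 178 ± 3.91 CPM in DMSO and 43.3 ± 1.14 CPM with its siRNA (SD, n = 3 each), where CPM are counts scaled to one common library size by edgeR's TMM method. STM2457 moved it to 618 ± 36.8 CPM without siRNA and to 76.9 ± 3.28 CPM with siRNA. The log2 change of YTHDF2 with siRNA was therefore −2.04 in DMSO and −3.01 under STM2457, so the 2 siRNA comparisons span unlike differences in YTHDF2 mRNA. The knockdown libraries held 37694945 to 42303951 gene counts each, the 9 h libraries 22510323 to 34677704, and the libraries of the emetine experiment 21781514 to 28053353. All 5 neural and renal markers of the line (PAX2, LHX1, NEFM, NEFL and INA) were detected, with a summed level of 356 to 737 CPM. PAX2 (2.85 to 6.07 CPM) and LHX1 (3.17 to 9.51 CPM) added little to that sum. Of the defining markers of other cells, ALB, PTPRC, HBB, DCN and KRT5 stayed at or below 0.134 CPM in every library. COL1A1 (14.3 to 25.2 CPM) and KRT10 (19.9 to 40.4 CPM) were among those detected, both above PAX2 and LHX1. The labels do not name separate cultures for the replicates, and p-values here describe the spread among libraries, which may be technical. Changes are relative to the other genes of the library, and in bulk RNA fewer cells with an mRNA and less of it per cell cannot be told apart. The share of counts in ribosomal protein mRNAs went with treatment: 6.11 to 6.23% in DMSO and 6.62 to 7.83% with STM2457 in the knockdown experiment, 5.08 to 5.31% and 4.49 to 4.76% at 9 h, and, in DMSO, 6.41 to 6.86% without and 5.22 to 5.32% with emetine. With STM2457 in the knockdown experiment, replicate 3 held 7.83% in these mRNAs, and replicates 1 and 2 held 6.62% and 6.72%. Scaling to those mRNAs moved the median log2 change of all genes by −0.26 for STM2457 at 6 h in the knockdown experiment, by −0.17 in the emetine experiment, by 0.17 at 9 h and by 0.44 for emetine. Scaling to the ERCC spike-ins, RNAs added in known amounts, moved it by −0.37 for STM2457 in the knockdown experiment and by 0.02 for siRNA in DMSO. In the emetine experiment it moved by −0.13 for STM2457 and by 0.49 for emetine. The spike-in share varied within groups of the knockdown experiment, from 0.328 to 0.463% with STM2457 and from 0.327 to 0.472% with STM2457 and siRNA. A call lost there with spike-ins therefore need not mean a smaller change, and the value is to be read beside it. Calls and directions below are with TMM scaling unless another is named, and a turn in the direction of a called gene is given beside it.

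The members were all well measured. The lowest count of any of them in any library was 448 reads, for DCP1B, and the highest was 11158, for DDX6. Per kilobase of all annotated exons of a gene, LSM14A stood highest in the DMSO libraries of the knockdown experiment, at 38.9 ± 0.864 CPM per kb (SD, n = 3). EDC3 (21.3 ± 0.877), DDX6 (20.6 ± 0.901) and PATL1 (19.5 ± 0.885) followed, and among these 3 neighbours did not differ beyond their spread. EDC4 came next, lower than PATL1 by more than their spread, at 16.3 ± 1.06 CPM per kb, then the catalytic subunit DCP2 at 12.3 ± 0.140 and DCP1A at 9.76 ± 0.149. EIF4ENIF1 stood at 8.0 ± 0.246 CPM per kb, and XRN1 (4.31 ± 0.118) and DCP1B (3.24 ± 0.0799) were the lowest. In the DMSO libraries at 9 h and of the emetine experiment LSM14A was again the highest and DCP1B the lowest. XRN1 and DCP1B did not differ beyond their spread in the emetine experiment, at 3.78 ± 0.125 and 3.73 ± 0.273 CPM per kb. This order rests on the length chosen, and no other length was tried. All annotated exons add up to 4609 bases for DCP1B and 11444 for DDX6. The coding transcripts used further on have 2086 and 6152 bases.

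**Figure D1:**
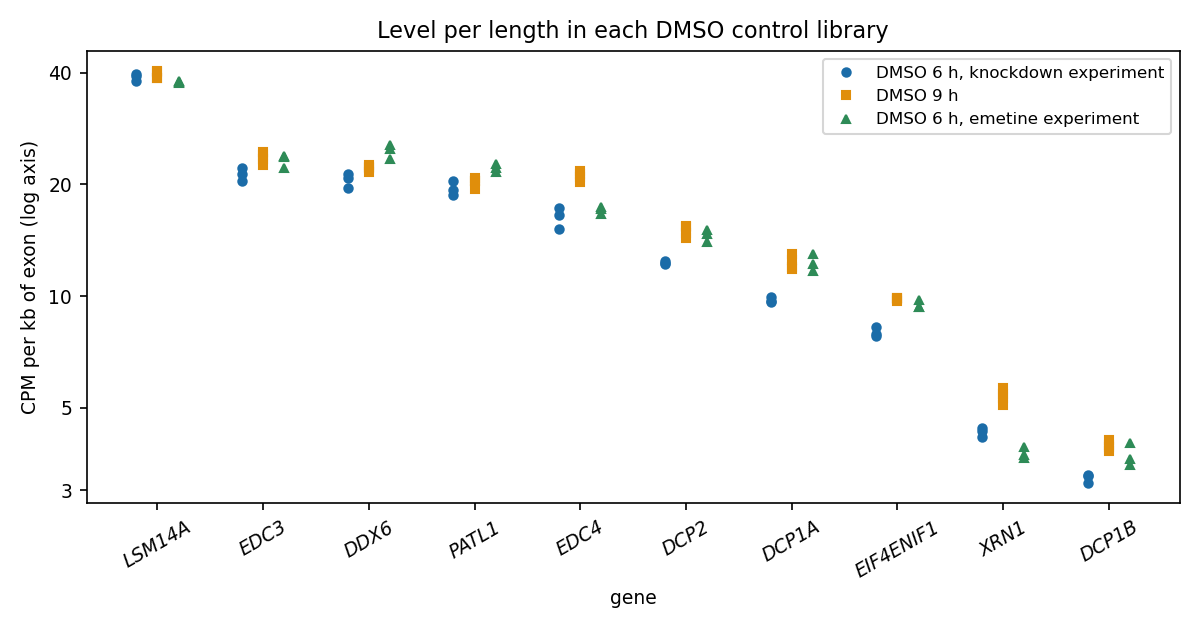
Level of each mRNA per kilobase of all annotated exons (CPM per kb, log axis) in each DMSO control library of the 3 experiments, with genes ordered by the knockdown experiment. LSM14A lies near 39 CPM per kb and DCP1B between 3 and 4, and the middle of the order (EDC3, DDX6, PATL1) overlaps.

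Across the comparisons, DCP1B was the member that STM2457 moved most, PATL1 and EDC4 fell, YTHDF2 siRNA moved EDC3 most, and emetine moved all 10. With STM2457 for 6 h in the knockdown experiment 4 of the 10 rose and 2 fell (edgeR adjusted p under 0.05), where 22.9% of all 16662 genes tested rose and 22.1% fell. In the emetine experiment without emetine the same drug raised 4 and lowered 2, against 26.0% and 21.9% of 15817 genes, and at 9 h it raised 2 and lowered 4, against 32.2% and 32.5% of 15834 genes. The median log2 change of the 10 was 0.09, 0.06 and 0.02 in these 3 comparisons, beside −0.02, 0.00 and 0.00 over all genes. The counts lie near the background, and the members did not move together. Scaling to ribosomal protein mRNAs turned those medians to −0.17, −0.11 and 0.19 and the split of the members to 1 higher and 5 lower in the knockdown experiment, 1 and 4 in the emetine experiment and 6 and 0 at 9 h. All genes turned the same way with that scaling, to 1250 higher and 7371 lower, 2205 and 6638, and 7533 and 2406. With spike-ins the members were 0 higher and 2 lower in the knockdown experiment and 1 and 2 in the emetine experiment, beside 398 and 5023, and 2092 and 4679, of all genes.

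With YTHDF2 siRNA present, STM2457 raised 2 members (DCP1B and XRN1) and lowered none, beside 15.5% and 15.4% of all genes. With emetine present it raised 7 and lowered none, beside 21.6% and 16.2%, but only DCP1B was still called when libraries were scaled to ribosomal protein mRNAs or to spike-ins. YTHDF2 siRNA in DMSO raised 3 (DCP1B, EDC3 and XRN1) and lowered DCP1A, beside 33.1% and 29.3% of all genes. Under STM2457 it raised 4 (the same 3 and PATL1) and lowered none, beside 29.8% and 30.1%. Emetine raised 7 and lowered 3 both in DMSO (33.9% of all genes rose and 28.3% fell) and under STM2457 (30.4% and 29.4%). The 2 emetine comparisons share no library, but the comparisons of the knockdown and emetine experiments that start from one group share that group.

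**Figure D2:**
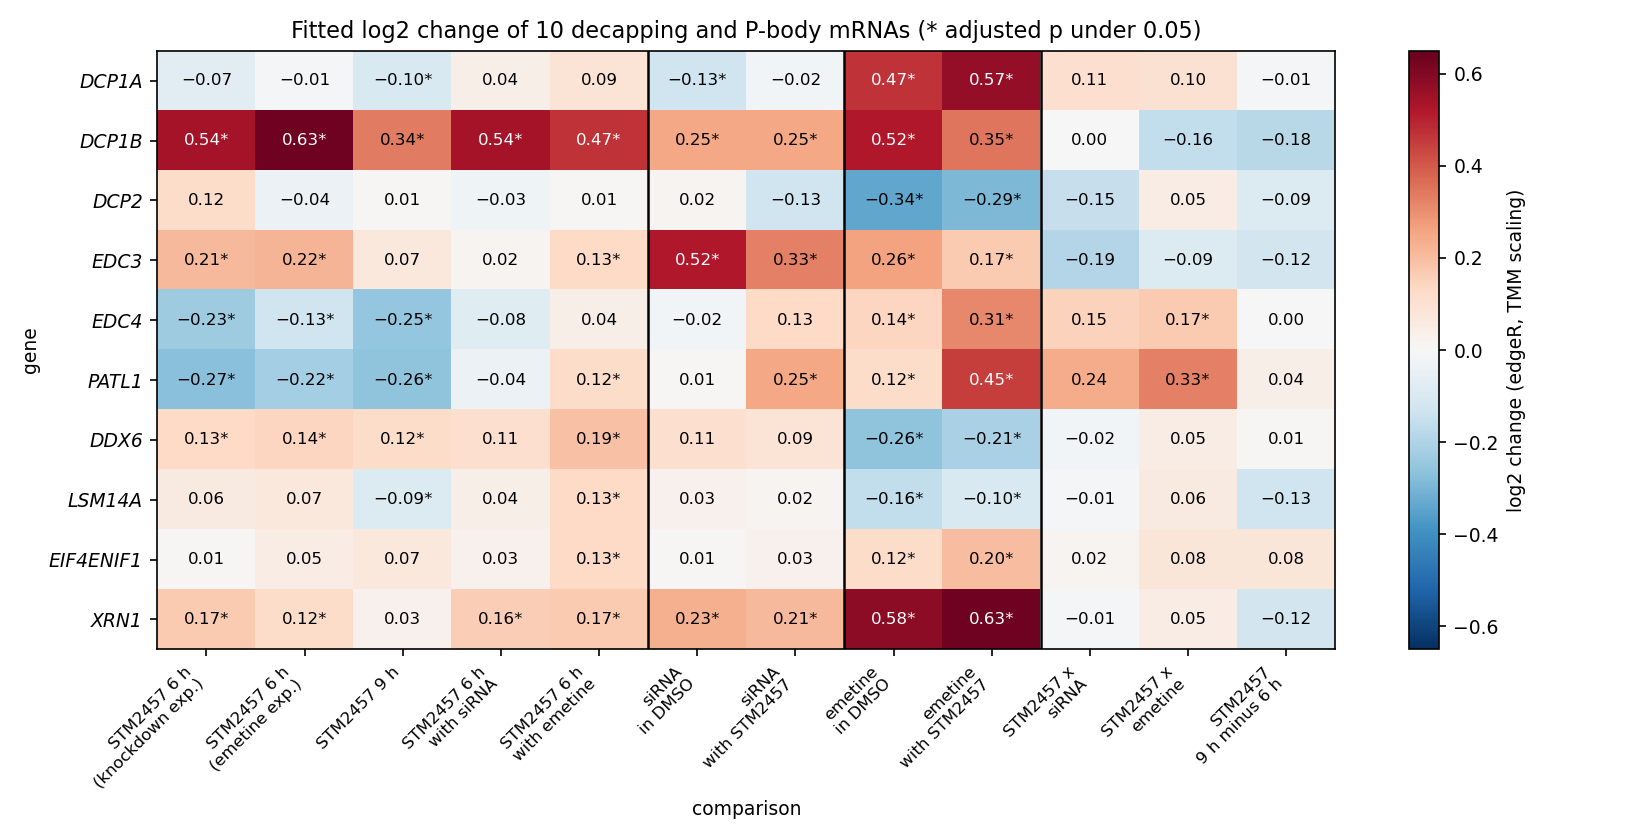
Fitted log2 change of each of the 10 mRNAs (rows) in 12 comparisons (columns), as numbers and colour, with * for an edgeR adjusted p under 0.05; the last 3 columns are differences between STM2457 effects. DCP1B is red in all 5 STM2457 columns (0.34 to 0.63), and PATL1 and EDC4 are blue in the first 3 (−0.13 to −0.27).

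DCP2, the enzyme itself, was not called with TMM scaling and all libraries in any comparison with STM2457 or siRNA. DCP2 (ENSG00000172795.16, GRCh38 chromosome 5, 112976702 to 113020970, plus strand) was at 122, 124 and 121 CPM in the DMSO libraries of the knockdown experiment and at 138, 126 and 135 CPM with STM2457. With siRNA it was at 135, 118 and 120 CPM in DMSO and at 118, 127 and 120 CPM with STM2457. The 9 h libraries held 153, 143, 148 and 154 CPM in DMSO and 154, 150, 149 and 149 CPM with STM2457. The STM2457 libraries lie above the DMSO libraries only in the first of these pairs, and its log2 change there was 0.12 (SE 0.06, edgeR adjusted p = 0.0935). With siRNA under STM2457 the log2 change was −0.13 (SE 0.06, edgeR adjusted p = 0.0607), and it was called without any of 5 single libraries (DMSO replicate 3, STM2457 replicate 2, DMSO with siRNA replicate 1 or 2, or STM2457 with siRNA replicate 2; values down to −0.18, adjusted p down to 0.0138). At 9 h the log2 change was 0.01 with an approximate 95% interval of −0.05 to 0.07. Scaling to ribosomal protein mRNAs made it 0.19 at 9 h and −0.21 in the emetine experiment without emetine, both then called (edgeR adjusted p = 0.000263 and 0.000689). In the latter, where the TMM value was −0.04, it was also called without DMSO replicate 3 (edgeR adjusted p = 0.0397). In the emetine experiment DCP2 went from 146, 150 and 139 CPM to 111, 118 and 116 CPM with emetine in DMSO, and from 143, 143 and 138 to 117, 114 and 116 CPM under STM2457. No library with emetine reached any library without it. The log2 changes were −0.34 and −0.29 (SE 0.04 each, edgeR adjusted p = 5.58e-10 and 1.82e-08), and they turned to 0.10 and 0.21 with scaling to ribosomal protein mRNAs and to 0.15 and 0.24 with spike-ins.

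Of the DCP1 paralogs, DCP1B rose in all 5 comparisons with STM2457, and DCP1A was called in 1 of them with TMM scaling, with a fall at 9 h. The difference between the paralogs was not tested and is described by their ratio further on. DCP1B (ENSG00000151065.14, GRCh38 chromosome 12, 1946054 to 2004535, minus strand) was at 15.1, 15.2 and 14.5 CPM in the DMSO libraries of the knockdown experiment and at 21.4, 21.7 and 22.04 CPM with STM2457. At 9 h it was at 18.9, 17.7, 18.3 and 18.1 CPM in DMSO and at 21.0, 23.0, 23.0 and 25.1 CPM with STM2457. In the emetine experiment it went from 16.2, 16.8 and 18.6 to 27.0, 26.0 and 26.7 CPM. Every STM2457 library stood above every DMSO library of its experiment here. The log2 changes were 0.54 (SE 0.06, adjusted p = 5.67e-07), 0.34 (SE 0.05, adjusted p = 6.84e-06) and 0.63 (SE 0.06, adjusted p = 1.54e-10) by edgeR. Of all genes tested, 9.33%, 21.6% and 7.42% had a larger rise in the same comparisons. Scaling to ribosomal protein mRNAs left 0.28, 0.51 and 0.46, all called. Scaling to spike-ins left 0.50 in the emetine experiment, but in the knockdown experiment it left 0.17 with an edgeR adjusted p of 0.501.

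DCP1B also rose with STM2457 in the presence of siRNA and of emetine. With YTHDF2 siRNA it went from 18.3, 17.2 and 17.8 CPM in DMSO to 24.4, 27.2 and 25.9 CPM with STM2457, a log2 change of 0.54 (SE 0.06, edgeR adjusted p = 6.98e-07), lost with spike-in scaling (0.24, adjusted p = 0.387). The difference between the effects with and without siRNA was 0.00 (SE 0.09), with an approximate 95% interval of −0.17 to 0.17. With emetine it went from 23.3, 25.2 and 25.0 to 33.1, 35.0 and 33.5 CPM, a log2 change of 0.47 (SE 0.06, edgeR adjusted p = 2.42e-08). That differed from the effect without emetine by −0.16 (SE 0.08, edgeR adjusted p = 0.193). YTHDF2 siRNA alone raised DCP1B by 0.25 (SE 0.06, edgeR adjusted p = 0.0014), and emetine alone by 0.52 (SE 0.06, edgeR adjusted p = 6.41e-09). The siRNA value was 0.27 with spike-in scaling, where the adjusted p was 0.331.

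DCP1A (ENSG00000272886.6, GRCh38 chromosome 3, 53283428 to 53347610, minus strand) was at 60.8, 59.0 and 59.7 CPM in DMSO and at 57.7, 58.6 and 54.7 CPM with STM2457 in the knockdown experiment. With siRNA it was at 56.4, 55.2 and 52.7 CPM in DMSO and 55.4, 56.2 and 57.4 CPM with STM2457. The 9 h libraries held 72.7, 73.3, 76.7 and 79.8 CPM in DMSO and 74.1, 69.0, 70.9 and 68.5 CPM with STM2457, and these overlap. With scaling to ribosomal protein mRNAs it was called lower at 6 h, by −0.33 in the knockdown experiment and −0.18 in the emetine experiment (edgeR adjusted p = 0.012 and 0.00524). Its log2 change at 9 h was −0.10 (SE 0.04, edgeR adjusted p = 0.0224). That call was lost when any of 4 single libraries was left out (DMSO replicates 3 and 4, STM2457 replicates 2 and 4; adjusted p up to 0.103), and the value turned to 0.08 with scaling to ribosomal protein mRNAs. YTHDF2 siRNA lowered it by 0.13 on the log2 scale (edgeR adjusted p = 0.0271), a call lost without replicate 3 of the DMSO libraries with siRNA (adjusted p = 0.093), without the filter on low counts and with either other scaling. Emetine moved DCP1A from 79.5, 74.9 and 71.6 to 106, 103 and 103 CPM in DMSO, and from 76.9, 75.8 and 71.4 to 109, 111 and 112 CPM under STM2457. The groups stand apart, with log2 changes of 0.47 and 0.57 (SE 0.04 each, edgeR adjusted p = 3.39e-12 and 4.65e-14).

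Since both paralogs are counted in the same library, their ratio does not depend on the scaling. DCP1B counts were 0.250 ± 0.0068 of DCP1A counts in DMSO and 0.381 ± 0.019 with STM2457 in the knockdown experiment (SD, n = 3 each). The ratio was 0.242 ± 0.014 and 0.327 ± 0.034 at 9 h (SD, n = 4 each), and 0.229 ± 0.028 and 0.356 ± 0.016 in the emetine experiment. With siRNA it was 0.324 ± 0.014 and 0.458 ± 0.023, and with emetine 0.235 ± 0.014 and 0.306 ± 0.0079 (SD, n = 3 each). In each of the 5 pairs the lowest STM2457 library lay above the highest DMSO library. Each gene overlaps a calcium channel gene on the other strand, CACNA1C for DCP1B and CACNA1D for DCP1A, but they share no exon base with it. CACNA1C stood between 1.21 and 3.78 CPM in all libraries.

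**Figure D3:**
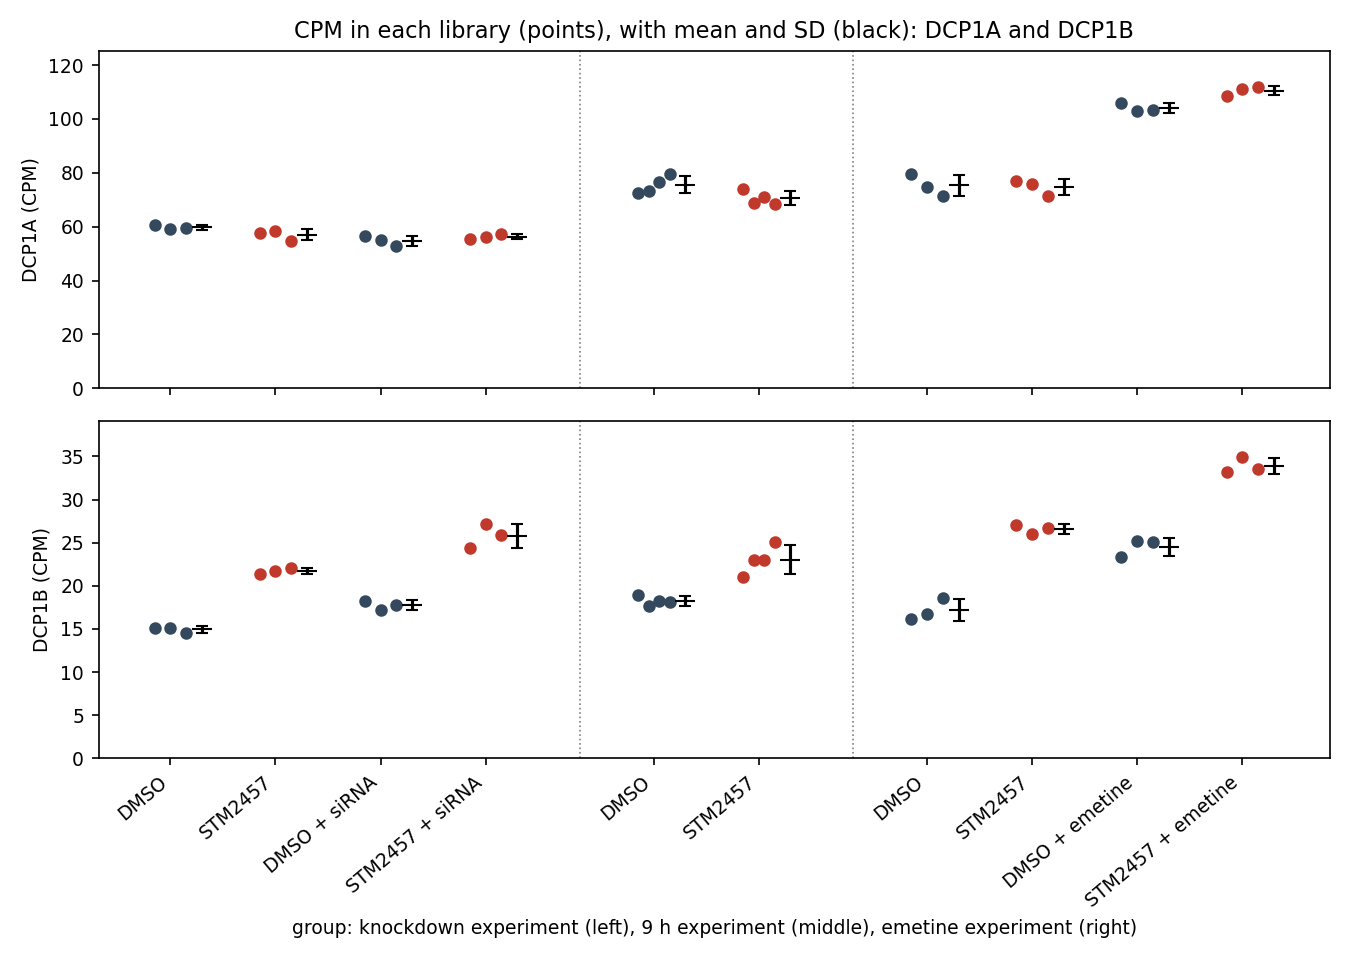
DCP1A and DCP1B in CPM (axes from 0) in each library of the 10 groups, with the mean and SD beside the points; STM2457 groups are red. DCP1B is higher with STM2457 in all 5 pairs of groups, while DCP1A is high in the emetine groups (103 to 112 CPM) and overlaps or differs little between DMSO and STM2457.

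The 2 paralogous transcripts differ in layout. m6A lies mostly in a short consensus around GGAC, with GGACT the most favoured form, and it is known to be depleted near exon junctions, so that long internal exons hold much of it. m6A itself was not measured in these files. In the longest coding transcript of GENCODE 29, DCP1B has 2086 bases with a 3′ UTR of 155 bases, and DCP1A has 5994 with a 3′ UTR of 4155. Both have a long coding exon inside the gene, exon 7 of 9 in DCP1B with 873 bases (GRCh38 chr12:1952416-1953288) and exon 7 of 10 in DCP1A with 759 (chr3:53292069-53292827). Among 19641 protein coding genes 6.81% and 8.47% have an internal exon at least as long. DCP1B holds no GGACT on the transcript strand, as do 12.3% of genes, and 6 GGAC in its coding part, 3 of them in exon 7. DCP1A holds no GGACT in its coding part and 4 GGAC, 1 of them in exon 7. Any GGAC in the coding part is found in 96.2% of genes, and GGACT, which contains GGAC, in 72.4%. The sites of the long exon 7 are shown with 10 bases on each side, read 5′ to 3′ along the mRNA, with the motif in capitals, since this is where the paralogs can be set side by side.
DCP1B, chr12:1953232-1953235: ttgggaagcaGGACaaagctacat
DCP1B, chr12:1952949-1952952: attttttacaGGACctgtccagcc
DCP1B, chr12:1952685-1952688: tcagacagtaGGACatcaggctca
DCP1A, chr3:53292812-53292815: tgctccatctGGACacaagcatct
Both genes lie on the minus strand, so exon 7 begins at its higher coordinate. The DCP1A site, at 53292812-53292815, lies close to that junction, at 53292827. Of the 3 DCP1B sites, that at 1953232-1953235 lies nearest to its junction, at 1953288. A match to the motif is a description of the sequence and does not show that the base is methylated.

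PATL1 and EDC4, which connect the 3′ end complex and the scaffold to DCP2, fell with STM2457 in all 3 comparisons without siRNA or emetine. PATL1 (ENSG00000166889.14, GRCh38 chromosome 11, 59636716 to 59668980, minus strand) went from 82.5, 87.4 and 80.0 CPM to 66.2, 72.3 and 68.5 CPM in the knockdown experiment. At 9 h it went from 83.2, 87.5, 89.1 and 87.5 to 68.7, 74.0, 74.2 and 73.4 CPM, and in the emetine experiment from 94.9, 96.9 and 92.4 to 83.1, 81.3 and 80.5 CPM. The groups did not overlap in any of them. The log2 changes were −0.27 (SE 0.06, adjusted p = 0.000681), −0.26 (SE 0.03, adjusted p = 5.37e-07) and −0.22 (SE 0.04, adjusted p = 2.22e-05) by edgeR. Of all genes tested, 21.8%, 22.4% and 22.5% had a larger fall in the same comparisons. Both other scalings left a called fall at 6 h (−0.35 to −0.63), and scaling to ribosomal protein mRNAs left −0.09 at 9 h (edgeR adjusted p = 0.076).

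EDC4 (ENSG00000038358.15, GRCh38 chromosome 16, 67873023 to 67884503, plus strand) went from 102, 106 and 93.6 CPM to 89.7, 90.6 and 77.6 CPM with STM2457 in the knockdown experiment. At 9 h it went from 134, 129, 132 and 125 to 111, 108, 112 and 107 CPM, and in the emetine experiment from 108, 106 and 103 to 92.6, 101 and 95.9 CPM. The groups were apart each time, by little in the knockdown and emetine experiments. The log2 changes were −0.23 (SE 0.06, adjusted p = 0.00501), −0.25 (SE 0.03, adjusted p = 1.44e-07) and −0.13 (SE 0.04, adjusted p = 0.00397) by edgeR. Of all genes tested, 25.3%, 23.0% and 31.3% had a larger fall in the same comparisons. Both other scalings left a called fall at 6 h (−0.26 to −0.57), and scaling to ribosomal protein mRNAs left −0.08 at 9 h (edgeR adjusted p = 0.0998). A lincRNA on the same strand shares 1311 of the 6173 exon bases of EDC4, so its reads cannot all be assigned with certainty.

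Emetine changed the response of PATL1 to STM2457. With emetine, PATL1 was at 105, 98.7 and 106 CPM in DMSO and at 107, 113 and 115 CPM with STM2457, so that the STM2457 libraries now stood above the DMSO libraries. The log2 change was 0.12 (SE 0.04, edgeR adjusted p = 0.0146), a call lost without replicate 2 of the DMSO libraries with emetine or replicates 2 or 3 of the STM2457 libraries with emetine (adjusted p up to 0.126). It was 0.01 with scaling to ribosomal protein mRNAs and 0.03 with spike-ins. The difference between the effects with and without emetine was 0.33 (SE 0.05, edgeR adjusted p = 2.51e-05), and it was called with the other scalings too (0.39 and 0.38). EDC4 with emetine was at 118, 114 and 116 CPM in DMSO and at 119, 121 and 118 CPM with STM2457, and its difference between effects was 0.17 (SE 0.05, edgeR adjusted p = 0.0185). That call was lost without replicate 2 of either emetine group (edgeR adjusted p up to 0.0551), without the filter on low counts (0.15, adjusted p = 0.0676) and with spike-in scaling (0.22, adjusted p = 0.331). Of all 15817 genes, 6.71% had a called positive difference and 11.1% a negative one, and PATL1 and EDC4 were the 2 of 10 members called, both positive.

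With YTHDF2 siRNA neither gene was called with STM2457. PATL1 was at 86.5, 84.5 and 80.7 CPM in DMSO with siRNA and at 77.0, 87.4 and 81.0 CPM with STM2457 and siRNA, which overlap. EDC4 was at 99.9, 99.1 and 99.6 CPM and at 93.2, 97.8 and 91.7 CPM, which stand apart by little. The log2 changes were −0.04 (SE 0.06) for PATL1 and −0.08 (SE 0.06) for EDC4 (edgeR adjusted p = 0.67 and 0.357). The difference from the effect without siRNA was 0.24 for PATL1 (SE 0.08, edgeR adjusted p = 0.0793; 0.0379 by DESeq2 and 0.0437 in edgeR with a replicate block) and 0.15 for EDC4 (SE 0.09, adjusted p = 0.347). No member was called in this test by edgeR, where 1.78% of all genes were called positive and 6.93% negative. At an unadjusted p under 0.05 there were 2 members, PATL1 and EDC3, and DESeq2 called PATL1 alone. Under STM2457 the siRNA raised PATL1 by 0.25 (SE 0.06, edgeR adjusted p = 0.00102), and in DMSO its change was 0.01 (SE 0.06, adjusted p = 0.886). The rise was 0.32 with spike-in scaling, where the adjusted p was 0.216.

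Emetine itself raised both, and more under STM2457. PATL1 rose by 0.12 in DMSO (SE 0.04, edgeR adjusted p = 0.00532) and by 0.45 under STM2457 (SE 0.04, adjusted p = 4.17e-12). EDC4 rose by 0.14 (SE 0.04, edgeR adjusted p = 0.0012) and by 0.31 (SE 0.04, adjusted p = 7.42e-09). The differences between these pairs are the 0.33 and 0.17 given above. The PATL1 rise in DMSO was lost without replicate 1 or 3 of the DMSO libraries without emetine (adjusted p up to 0.0766).

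**Figure D4:**
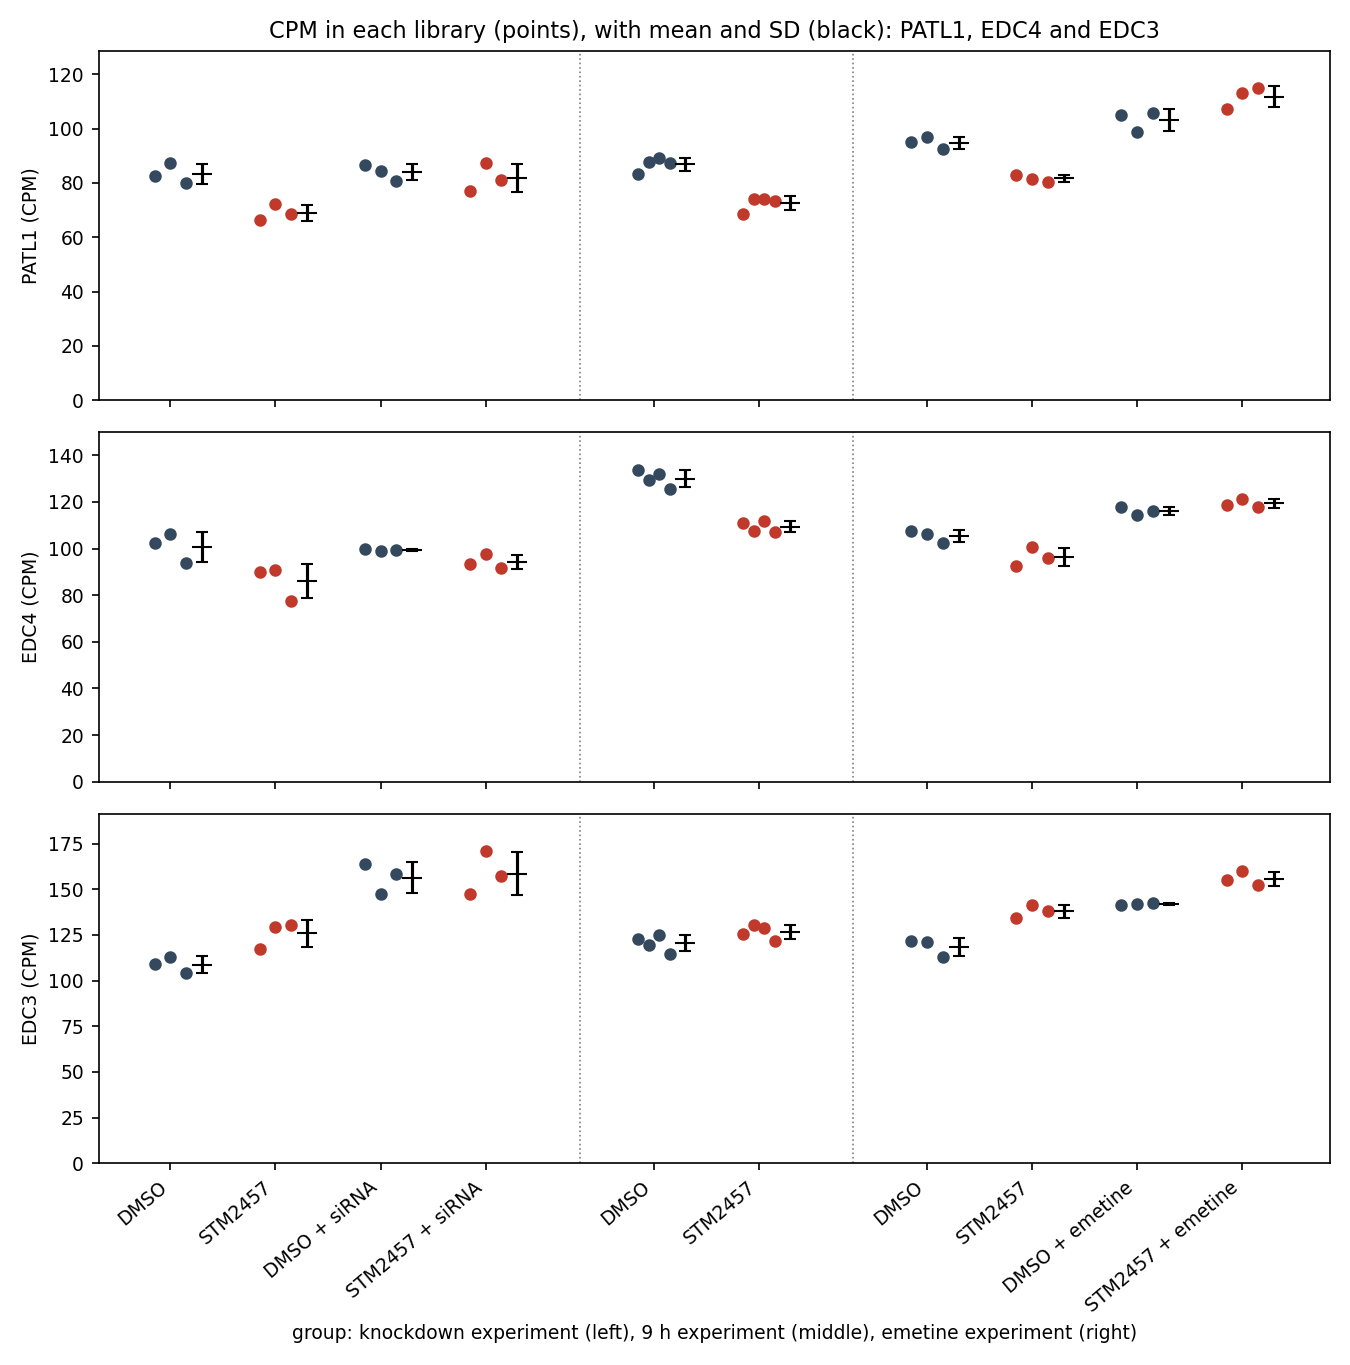
PATL1, EDC4 and EDC3 in CPM (axes from 0) in each library of the 10 groups, with the mean and SD beside the points; STM2457 groups are red. PATL1 is lower with STM2457 without siRNA or emetine (66 to 83 CPM against 80 to 97) and higher with emetine, and EDC3 is highest with siRNA (147 to 171 CPM).

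Both mRNAs carry GGACT in their coding part. EDC4 has 5 in 4203 coding bases, and 9.86% of genes have at least as many. PATL1 has 3 in 2310, which 26.9% of genes reach. Neither has one in its 3′ UTR. Across the 10 members, 6 hold GGACT in the coding part (EIF4ENIF1 4, and DCP2, EDC3 and XRN1 1 each) and 4 hold none (DCP1A, DCP1B, DDX6 and LSM14A). DCP1B, the member that rose most with STM2457, is among those without GGACT, but it holds 6 GGAC in its coding part. Whether either motif goes with the response to STM2457 was not tested. EIF4ENIF1, with 4, was not called with STM2457 in the 3 comparisons without siRNA or emetine with TMM scaling and all libraries. The coding sites of the pair that fell are shown in the same way, with GGACT in capitals.
PATL1 exon 2, chr11:59666915-59666919: tgcatttcagGGACTgggagaagaa
PATL1 exon 3, chr11:59659365-59659369: gagatgaaatGGACTtgttgggtga
PATL1 exon 14, chr11:59649580-59649584: ttgatgtggaGGACTatgaaagacg
EDC4 exon 2, chr16:67875998-67876002: ggacctcaatGGACTtctggtccca
EDC4 exon 8, chr16:67878197-67878201: tctcctgatgGGACTgtgctggcta
EDC4 exon 14, chr16:67879496-67879500: ctgcccacgaGGACTtcacatttgg
EDC4 exon 20, chr16:67881349-67881353: tgcctgccaaGGACTggaagaccaa
EDC4 exon 22, chr16:67881685-67881689: agccccctgaGGACTggccagcact
The longest internal exon of PATL1, exon 3 with 218 bases, holds 1 of these sites. That of EDC4, exon 18 with 434 bases, holds none of them. The median longest internal exon over all genes is 202 bases.

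EDC3, an enhancer of decapping that binds DCP2 and DDX6, was the member that YTHDF2 siRNA raised most. EDC3 (ENSG00000179151.13, GRCh38 chromosome 15, 74630558 to 74696292, minus strand) went from 109, 113 and 104 CPM in DMSO to 164, 147 and 158 CPM with siRNA. Under STM2457 it went from 118, 129 and 131 to 148, 171 and 158 CPM. All siRNA libraries stood above those without. The log2 changes were 0.52 (SE 0.06, edgeR adjusted p = 6e-07) and 0.33 (SE 0.06, edgeR adjusted p = 0.000122), and 16.6% and 24.7% of all genes rose more. With spike-ins the first was 0.55 (edgeR adjusted p = 0.0188) and the second 0.42, no longer called (adjusted p = 0.0924). CLK3, on the other strand, shares 701 of the 5103 exon bases of EDC3, and its mean went from 42.9 to 29.1 CPM with siRNA in DMSO, the opposite way. Since the strand setting of the counting is not known, reads in the shared bases cannot be assigned with certainty.

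STM2457 raised EDC3 in 3 of 5 comparisons. In the knockdown experiment without siRNA the log2 change was 0.21 (SE 0.06, edgeR adjusted p = 0.00965), and it was lost without DMSO replicate 3 (adjusted p = 0.0686) and turned to −0.05 and −0.15 with scaling to ribosomal protein mRNAs and spike-ins. In the emetine experiment EDC3 went from 122, 121 and 113 to 134, 142 and 138 CPM, and with emetine from 142, 142 and 143 to 155, 160 and 152 CPM. Those log2 changes were 0.22 and 0.13 (SE 0.04 each, edgeR adjusted p = 4.9e-06 and 0.00261), and at most 0.08 with the other scalings, where neither was called. At 9 h the libraries overlapped, with 123, 119, 125 and 115 CPM in DMSO and 126, 131, 129 and 122 CPM with STM2457 (a log2 difference of 0.07 with edgeR adjusted p = 0.0539, or 0.25 with ribosomal protein scaling, which was called). It was also called without the low-count filter (0.09) or without DMSO replicate 3 or STM2457 replicate 1 or 4 (up to 0.10, edgeR adjusted p down to 0.0204). With siRNA present the change was 0.02 (SE 0.06). Emetine raised EDC3 by 0.26 in DMSO and by 0.17 under STM2457 (SE 0.04 each, edgeR adjusted p = 1.13e-07 and 7.4e-05).

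XRN1, the exonuclease that acts after decapping, rose most with emetine. XRN1 (ENSG00000114127.10, GRCh38 chromosome 3, 142306607 to 142448062, minus strand) went from 44.0, 46.9 and 44.9 CPM to 64.7, 68.6 and 70.1 CPM with emetine in DMSO. Under STM2457 it went from 52.1, 49.6 and 45.9 to 78.2, 74.0 and 76.0 CPM. The groups stood far apart, with log2 changes of 0.58 and 0.63 (SE 0.05 each, edgeR adjusted p = 6.24e-13 and 1.04e-13), and 15.7% and 12.9% of all genes rose more. YTHDF2 siRNA moved it from 50.1, 52.9 and 52.0 to 65.2, 58.9 and 57.1 CPM in DMSO, a log2 change of 0.23 (SE 0.06, edgeR adjusted p = 0.00209). Under STM2457 it went from 59.2, 57.4 and 57.8 to 62.8, 70.0 and 69.0 CPM, a log2 change of 0.21 (SE 0.06, edgeR adjusted p = 0.00358). Both siRNA calls were lost with spike-in scaling (0.25 and 0.30, edgeR adjusted p = 0.343 and 0.263).

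The changes of XRN1 with STM2457 were small and depended on the scaling. They were 0.17 and 0.16 (SE 0.06 each) without and with siRNA and 0.12 (SE 0.05) in the emetine experiment (edgeR adjusted p = 0.0212, 0.044 and 0.0431). Each turned negative with both other scalings (−0.01 to −0.19), and each was lost when single libraries were left out. The first was lost without DMSO replicate 1 or 3 or STM2457 replicate 1 (adjusted p up to 0.122 by edgeR). The second was lost without any DMSO library without siRNA, or replicate 2 or 3 of either group with siRNA (adjusted p up to 0.196 by edgeR). The third was lost without any DMSO library or STM2457 replicate 1 or 2 (adjusted p up to 0.459 by edgeR, 0.0915 by DESeq2). With emetine the change was 0.17 (SE 0.04, edgeR adjusted p = 0.00282), and 0.06 and 0.08 with the other scalings, not called. At 9 h XRN1 was at 63.7, 65.1, 68.0 and 60.8 CPM in DMSO and at 66.8, 67.3, 67.7 and 60.5 CPM with STM2457, which overlap (log2 change 0.03, SE 0.04). That became 0.20 with ribosomal protein scaling (edgeR adjusted p = 0.00141).

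DDX6 and its partners LSM14A and EIF4ENIF1 changed by at most 0.26 on the log2 scale with TMM scaling, and with emetine by up to 0.43 under the other scalings. DDX6 (ENSG00000110367.13, GRCh38 chromosome 11, 118747766 to 118791149, minus strand) had group means of 235 to 310 CPM. STM2457 raised it by 0.12 to 0.19 in 4 of 5 comparisons (with emetine the value was 0.08 and 0.10, not called, with the other scalings), of which the 9 h value was 0.12 (SE 0.03, edgeR adjusted p = 0.002). At 6 h in the knockdown experiment (0.13, edgeR adjusted p = 0.0438) the call was lost whichever of the 12 libraries was left out, and the value turned to −0.13 and −0.23 with scaling to ribosomal protein mRNAs and spike-ins. In the emetine experiment it was 0.14, turned to −0.03 with ribosomal protein scaling, was 0.003 with spike-ins, and was lost without DMSO replicate 3 or STM2457 replicate 2 (adjusted p up to 0.0653). LSM14A (ENSG00000257103.8, GRCh38 chromosome 19, 34172504 to 34229515, plus strand) had group means of 160 to 195 CPM. At 6 h in the knockdown experiment it changed by 0.06 with STM2457, not called, and by −0.21 with ribosomal protein scaling, then called (edgeR adjusted p = 0.0333). At 9 h it fell by 0.09 on the log2 scale (SE 0.03, edgeR adjusted p = 0.0112), lost without STM2457 replicate 1 or 4 (adjusted p up to 0.0707) and turned to 0.08 with ribosomal protein scaling. With emetine STM2457 raised it by 0.13 (SE 0.03, edgeR adjusted p = 0.00293), or 0.02 and 0.04, not called, with the other scalings. EIF4ENIF1 (ENSG00000184708.18, GRCh38 chromosome 22, 31436977 to 31496108, minus strand) had group means of 48.7 to 69.0 CPM, and with TMM scaling and all libraries the STM2457 comparison in the presence of emetine was the 1 of 5 in which it was called. The value was 0.13 (SE 0.04, edgeR adjusted p = 0.0155), lost without DMSO replicate 1 or 3 or STM2457 replicate 2 with emetine (adjusted p up to 0.154) and with both other scalings (0.03 and 0.05). At 6 h in the knockdown experiment its 0.01 turned to −0.25 with ribosomal protein scaling, then called (edgeR adjusted p = 0.0254). At 9 h its 0.07 was called without STM2457 replicate 1 or 4 (up to 0.09, edgeR adjusted p down to 0.0375) and with ribosomal protein scaling (0.24, adjusted p = 2.48e-05). An antisense gene shares 364 of the 6084 exon bases of EIF4ENIF1.

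With emetine the members split in the TMM-scaled data. DCP1A, DCP1B, EDC3, EDC4, PATL1, EIF4ENIF1 and XRN1 rose and DCP2, DDX6 and LSM14A fell, in DMSO and under STM2457 alike. DDX6 changed by −0.26 and −0.21 (SE 0.04 each) and LSM14A by −0.16 and −0.10 (SE 0.03 each), with edgeR adjusted p of at most 0.0095. EIF4ENIF1 rose by 0.12 and 0.20 (SE 0.04 each, edgeR adjusted p = 0.0149 and 0.000185), and the first was lost without any library of the groups with no emetine or replicate 2 of DMSO with emetine (adjusted p up to 0.151) and with DESeq2 (adjusted p = 0.0528). With the scalings to ribosomal protein mRNAs and spike-ins no member fell. DDX6 then changed by 0.17 to 0.32 and LSM14A by 0.28 to 0.43, all called, and 9 of 10 members in DMSO and 10 of 10 under STM2457 were called higher. In DMSO, XRN1, DCP1B and DCP1A stood at the top of the order and DCP2 at the bottom under each of the 3 scalings.

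**Figure D5:**
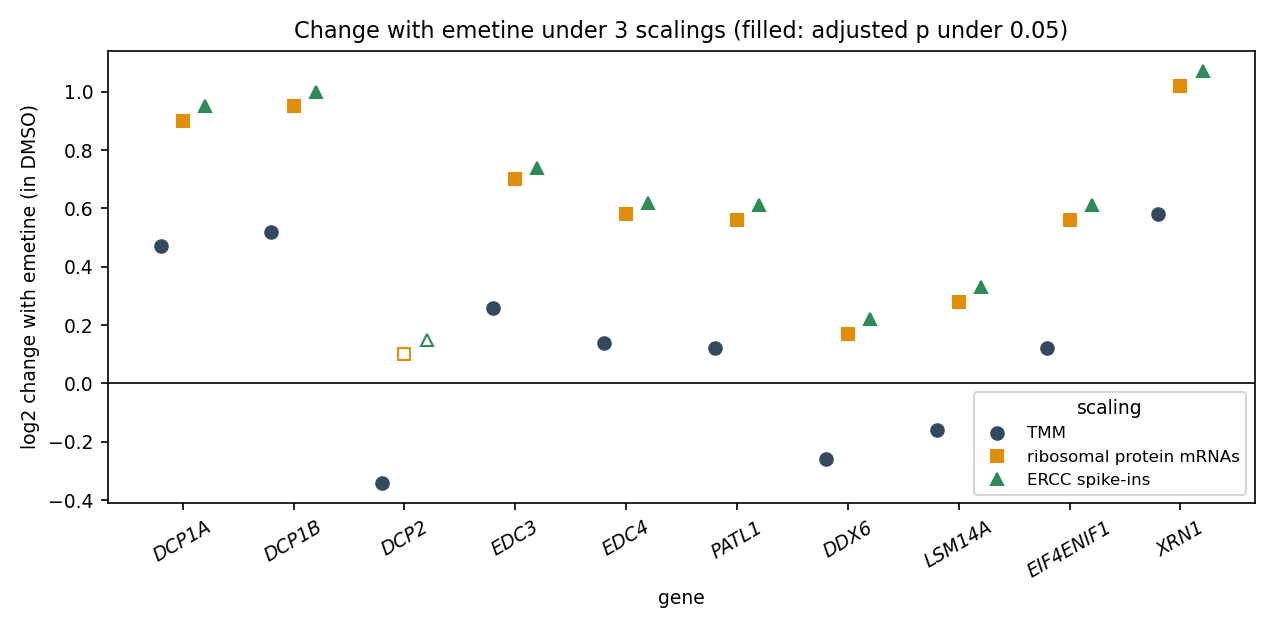
Log2 change with emetine in DMSO for each mRNA, with TMM scaling (circles), scaling to ribosomal protein mRNAs (squares) and to ERCC spike-ins (triangles); filled symbols have an edgeR adjusted p under 0.05. DCP2, DDX6 and LSM14A lie below 0 with TMM (−0.34 to −0.16) and above 0 with the other scalings (0.10 to 0.33).

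The STM2457 effect at 9 h was also set against that at 6 h of the knockdown experiment, although time and experiment cannot be told apart there. No member's difference was called by edgeR, where 17.2% of 16749 genes were called higher and 16.8% lower. At an unadjusted p under 0.05 there were 2, DCP1B (−0.18, SE 0.08, adjusted p = 0.0973) and LSM14A (−0.13, SE 0.06, adjusted p = 0.0965), and DESeq2 called both. With ribosomal protein scaling 9 of 10 were called positive, DCP1B (0.23, edgeR adjusted p = 0.0854) being the exception, and the median of all genes moved by 0.42.

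Other genes of the pathway were counted in 4 lists, with 39 genes in all. Their counts stand beside the same shares of all genes as before: with STM2457, 22.9% rose and 22.1% fell in the knockdown experiment, 26.0% and 21.9% in the emetine experiment, and 32.2% and 32.5% at 9 h. With siRNA in DMSO 33.1% rose and 29.3% fell, and with emetine in DMSO 33.9% and 28.3%. The LSM1-7 ring, which binds PATL1, had 7 members, all tested. At 9 h STM2457 raised 1 and lowered 6 (median −0.28, beside 0.00 over all genes), and with ribosomal protein scaling 1 and 4. LSM2 changed by −0.53 (SE 0.05) and LSM4 by −0.28 (SE 0.03) there (edgeR adjusted p = 3.06e-10 and 9.03e-08). At 6 h in the knockdown experiment 3 rose and none fell, which became 1 and 4 with ribosomal protein scaling and 0 and 0 with spike-ins. LSM1 was the leading one with 0.56 (SE 0.08, edgeR adjusted p = 1.28e-05), lost with spike-ins (0.17, adjusted p = 0.488). It changed by 0.34 (SE 0.04) in the emetine experiment (edgeR adjusted p = 4.05e-08; 0.17 and 0.20, still called, with the other scalings), where 2 rose and 2 fell, or 1 and 5 with ribosomal protein scaling. LSM5 rose by 0.30 in the knockdown experiment and LSM7 by 0.15 in the emetine experiment, and these turned to −0.09 with spike-ins and −0.02 with ribosomal protein scaling. YTHDF2 siRNA raised 1 and lowered 1 (LSM2, −0.30, SE 0.07, edgeR adjusted p = 0.000723), and with spike-ins neither was called (LSM2 −0.29, adjusted p = 0.279). Emetine raised 1 and lowered 5 (median −0.29; LSM3 −0.37 and LSM4 −0.31), which became 6 higher and none lower with ribosomal protein or spike-in scaling, both genes then being positive.

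Decapping cofactors, paralogs of members and other cap hydrolases had 9 genes, of which 8 were tested. STM2457 raised 1 and lowered 4 at 6 h in the knockdown experiment, raised 3 and lowered 2 in the emetine experiment, and raised 3 and lowered 4 at 9 h. With ribosomal protein scaling these became 0 and 5, 1 and 5, and 4 and 1, and with spike-ins 0 and 4, then 1 and 3, at 6 h. LSM14B, the paralog of LSM14A, changed by −0.25 (SE 0.05) and NUDT16, a Nudix cap hydrolase, by −0.26 (SE 0.06) in the first (edgeR adjusted p = 0.000694 and 0.00322). PNRC1, a DCP1A-binding cofactor, changed by 0.47 (SE 0.05) in the second (edgeR adjusted p = 7.94e-09). YTHDF2 siRNA raised 2 and lowered 5, with NBDY, a microprotein that binds EDC4, at −0.69 (SE 0.06) and LSM14B at 0.47 (SE 0.05), with edgeR adjusted p of 1.17e-08 and 2.33e-07, and with spike-ins 1 was higher and 1 lower. Emetine raised 2 (PNRC1, 0.53, and DXO, which removes faulty caps, 0.49) and lowered 3, and with the other scalings 6 rose and none fell.

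Silencing factors found in P bodies had 15 genes, all tested. STM2457 raised 7 and lowered 2 in the knockdown experiment, raised 8 and lowered 2 in the emetine experiment, and raised 6 and lowered 4 at 9 h. ZFP36L1, which binds AU-rich elements, rose by 0.59, 0.72 and 0.61 in these (SE 0.05 to 0.06, edgeR adjusted p = 1.41e-07, 1.08e-14 and 2.22e-11), the first lost with spike-ins (0.23, adjusted p = 0.351). TNRC6A, the GW182 scaffold of microRNA silencing, rose by 0.53 at 6 h in the knockdown experiment and by 0.51 at 9 h (edgeR adjusted p = 1.88e-06 and 1.55e-13), and TNRC6B by 0.61 in the emetine experiment. The 6 h call of TNRC6A was lost with ribosomal protein scaling (0.27, edgeR adjusted p = 0.0552) and with spike-ins (0.19, adjusted p = 0.439). With ribosomal protein scaling the split became 1 and 7 in the knockdown experiment, 3 and 4 in the emetine experiment and 10 and 1 at 9 h, and with spike-ins 0 and 2, then 3 and 3, at 6 h. YTHDF2 siRNA raised 6 and lowered 8, with AGO1 at −1.38 (SE 0.06) and AGO4 at 1.69 (SE 0.08), both Argonaute proteins (edgeR adjusted p = 1.18e-12 and 3.53e-12), and with spike-ins 3 were higher and 5 lower. Emetine raised 6 (AGO4 by 0.68) and lowered 5 (PUM2 at −0.33, and at 0.11 and 0.15 under the other scalings), and with the other scalings 12 rose and none fell.

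Other exonucleases and helicases had 8 genes, all tested. STM2457 raised none and lowered 2 in the knockdown experiment, 0 and 4 in the emetine experiment, and 1 and 6 at 9 h, and the lower calls numbered 6, 8 and 4 with ribosomal protein scaling. DDX3X, a helicase of translation initiation, changed by −0.43 (SE 0.03) and SKIC3, a subunit of the SKI complex of the cytoplasmic exosome, by −0.34 (SE 0.03) at 9 h (edgeR adjusted p = 3.07e-11 and 5.38e-10). With YTHDF2 siRNA 1 rose (DIS3L, 0.49) and 3 fell (DDX3X, −0.93, SE 0.05, edgeR adjusted p = 1.27e-11), or 1 and 1 with spike-ins. Emetine lowered DDX3X by 1.52 on the log2 scale (SE 0.04, edgeR adjusted p = 1.12e-26), and the list had 3 higher and 4 lower calls, or 7 and 1 with the other scalings.

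How the members varied together was described over the 32 libraries, each centred on the mean of its experiment. These correlations share the treatments and the library scaling, and they are given without a test. PATL1 and EDC4 had the highest Pearson r of the 45 pairs, 0.89. DCP1A was at 0.79 with XRN1 and at −0.80 with DCP2, and DCP1B was at 0.71 with XRN1 and 0.70 with EDC3. For DCP1B, the member with the largest mean STM2457 change (0.503 over the 3 comparisons without siRNA or emetine), the 5 most similar of 12980 protein coding genes were TRIM27, MEPCE, ADPRS, FBXL5 and MED26, with r = 0.97 each.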

How the data were processed

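Poly(A) RNA of HEK293T cells was sequenced with a strand-specific kit in 32 libraries, and the authors deposited gene counts, 1 file per library, with no normalization. STAR 2.7.3a, featureCounts of Subread 2.0.0 and GRCh38 p12 are named in the submitters' processing notes, beside SAMtools 1.9, Trimmomatic, cutadapt (1.18 and 4.0) and FastQC 0.11.8. Which strand setting the counting used, and which annotation release, is not given in the sources used here.

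Deposited counts were tested as they stand with edgeR 4.0.16 (R 4.3.3) by its quasi-likelihood test, with TMM scaling, filterByExpr, 1 mean per group and Benjamini-Hochberg adjustment over all genes tested at 0.05. There were 4 fits (each of the 3 experiments, and the libraries without siRNA of the knockdown experiment together with those at 9 h) and 12 comparisons. SE is the log2 change divided by the root of the test's F, and approximate 95% intervals are from it. The procedure was tested on simulated data. DESeq2 1.42.0, no low-count filter, scaling to 83 ribosomal protein genes or to ERCC spike-ins (24 libraries), a replicate block, and leaving out each library in turn were tried. No 2 of the 36 replicate pairs were identical.

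All 10 members were found by symbol. Every library is given for those called somewhere with an absolute log2 change of at least 0.3, and the others by range. Of the pathway lists the genes with the smallest p are named. Members and lists were chosen with earlier results of these data known, so they are no independent evidence. Gene positions, exon lengths, transcripts and sequences came from GENCODE 29 (GRCh38), which matched 58587 of 60662 gene IDs without version. With version it matched 43963 of them, and 2 of the 10 members. The gene models behind the counts may therefore differ from those used here for lengths, overlaps and motifs. Versions printed with the gene IDs are those of the count files. GGAC and GGACT were searched on the mRNA strand only, which leaves out the complement.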

Additional observations from a re-analysis of the deposited data

Results flagged for a closer look

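At 9 h with STM2457, replicate 4 had an XRN1 level of 60.45 CPM, apart from the other 3 libraries at 66.8, 67.32 and 67.65 CPM. In the same group replicate 1 had a PATL1 level of 68.72 CPM, apart from 73.4, 73.95 and 74.15 CPM. Both were picked by Dixon's criterion for a single far value among 4, which was applied to 20 groups and picks about 1 in 20 by chance. Without either library PATL1 was still called lower at 9 h, and XRN1 was still not called.

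The effect of STM2457 differed between cells with and without emetine for 2 members by the interaction test of edgeR. The difference was 0.33 for PATL1 and 0.17 for EDC4 (adjusted p = 2.51e-05 and 0.0185), and both were negative with STM2457 alone. No cause was tested.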

How the results depend on the processing

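DESeq2 left 115 of the 120 member results in direction and on their side of the threshold, and leaving out single libraries 1341 of 1420. The scaling of libraries moved more, 22 directions with ribosomal protein mRNAs and 11 with spike-ins (a direction is counted where either value was called). The cause was not tested.

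For STM2457 at 6 h in the knockdown experiment the values became, with ribosomal protein scaling and spike-ins in turn, −0.05 and −0.15 for EDC3, −0.09 and −0.19 for XRN1, and −0.13 and −0.23 for DDX6. With ribosomal protein scaling LSM14A became −0.21 and EIF4ENIF1 −0.25, and with spike-ins LSM5 became −0.09. With siRNA XRN1 became −0.03 and −0.15. In the emetine experiment without emetine XRN1 became −0.05 and −0.01, and with ribosomal protein scaling DDX6 became −0.03 and LSM7 −0.02. At 9 h DCP1A and LSM14A became 0.08 each. For emetine in DMSO the values became 0.10 and 0.15 for DCP2, 0.17 and 0.22 for DDX6, 0.28 and 0.33 for LSM14A, 0.07 and 0.12 for LSM3, 0.13 and 0.18 for LSM4, and 0.11 and 0.15 for PUM2. Under STM2457 they became 0.21 and 0.24 for DCP2, 0.29 and 0.32 for DDX6, and 0.40 and 0.43 for LSM14A. In the difference between 9 h and 6 h, ribosomal protein scaling gave 0.40 for DCP1A and EDC4, 0.33 for DCP2, 0.30 for EDC3, and 0.29 for XRN1 and LSM14A.

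With spike-ins the members called became 2 for STM2457 at 6 h in the knockdown experiment, 0 with siRNA, 1 for siRNA in DMSO and 0 under STM2457, 3 for STM2457 in the emetine experiment, 1 with emetine and 1 for the interaction with emetine. Ribosomal protein scaling left 1 for STM2457 with siRNA, 1 with emetine, and gave 9 for the time difference. Without the low-count filter 1 was called for STM2457 with siRNA and 1 for the interaction with emetine, and DESeq2 called 1 for the interaction with siRNA and 2 for the time difference. Genes called with spike-ins were 2519 for STM2457 with siRNA, 4882 and 4450 for siRNA in DMSO and under STM2457, 3932 for STM2457 with emetine and 705 for the interaction with emetine. For the interaction with siRNA they were 0 with spike-ins (395 at an unadjusted p under 0.05, and 1645 by DESeq2 with its own scaling) and 132 with ribosomal protein scaling, and for the time difference 9690 with ribosomal protein scaling.

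With single libraries left out, the genes called for the interaction with siRNA ranged from 879 to 2196. They were 966 without DMSO replicate 1, 2196 without STM2457 replicate 3, 879 without DMSO replicate 1 with siRNA, and 928 without STM2457 replicate 3 with siRNA. Members called ranged from 3 to 5 for STM2457 at 6 h in the knockdown experiment (3 without DMSO replicate 3), 1 to 2 with siRNA, 0 to 1 for the interaction with siRNA (1 without STM2457 replicate 2 or 3, or STM2457 replicate 1 with siRNA), 1 to 2 for the interaction with emetine and 0 to 4 for the time difference (4 without DMSO replicate 4 at 9 h, 1 or 2 without any STM2457 library at 9 h).

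Whether replicate numbers pair the samples cannot be settled from how the libraries deviated together. Same-numbered libraries had r over 0.1 in 8 of 18 pairs in the knockdown experiment, 3 of 18 in the emetine experiment and 0 of 4 at 9 h. Libraries with different numbers had it in 11 of 36, 9 of 36 and 5 of 12. The median r in the knockdown experiment was 0.091 with the same number and −0.05 with different numbers. A replicate block gave 7635, 10224 and 7575 genes called for STM2457 at 6 h, at 9 h and in the emetine experiment. It added 2 member calls, EDC4 for siRNA under STM2457 (0.13) and PATL1 for the interaction with siRNA (0.23, making 1 called), and changed no other.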
